A study of Mus musculus with 8 samples.

Results

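Astrocyte nuclei of mouse forebrain that held no RNA of Slc6a11 or Agt were compared between 4 surgical groups. They were chosen by measured values, from barcodes with 500 or more unique molecular identifiers (UMIs, 1 per captured RNA molecule), 300 or more genes and no more than 5% of UMIs from mitochondrial genes. A nucleus was kept when at least 2 of Aqp4, Gja1, Slc1a3, Slc7a10, Fgfr3 and Gldc were detected with 3 or more UMIs in sum. It had to hold at most 2 UMIs of the neuron genes Rbfox3, Snap25 and Syt1, none of Mog, Mag, Pdgfra, Cx3cr1 and Flt1, and none of Slc6a11 and Agt. The rule kept 916 of 48468 filtered nuclei (1.89%), and a further 1755 nuclei met all of it except the last condition. Because these genes chose the nuclei, their levels are given as a description only.

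The mice were male Swiss Webster, an outbred stock, 10 weeks old, and their tissue was frozen after dissection of a 2 mm cube beside the lesion. The 4 groups were control, BCAS alone, traumatic brain injury (TBI) alone and both surgeries (BCAS+TBI), with 2 libraries each, and the labels give no allele or drug for any of them. The titles of the control and BCAS libraries name no TBI, and where their cube lay is not stated here. The labels do not spell out BCAS, which the title of the series ties to cerebral hypoperfusion, and they give neither what the control animals underwent nor the time from surgery to dissection. They number the libraries as biological replicates without naming or pooling animals, so the p-values measure the spread between these libraries.

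Astrocytes take up glutamate through Slc1a2 and Slc1a3, buffer potassium, carry water through Aqp4 at their vascular endfeet, and are coupled by gap junctions of Gja1 and Gjb6. After injury they become reactive: they grow, raise the intermediate filaments Gfap and Vim, and near a lesion help form a scar. In the healthy forebrain, Gfap is high in astrocytes of white matter, hippocampus and the pial surface and low in most cortical and striatal astrocytes. Slc6a11 is a GABA transporter and Agt is angiotensinogen, and both are more abundant in astrocytes of the diencephalon and brainstem than in those of the cortex.

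The kept nuclei were shallow. Their median per library was 1379 to 2302.5 UMIs and 907 to 1343.5 genes, and their summed counts per library were 153133 to 316016 UMIs. The files held 6191 to 7882 barcodes per library, against a stated capture target of about 3000 droplets, and no doublet caller was run on these few nuclei. By total UMIs the 8 libraries fell into 2 depth sets, control 1, BCAS 1, TBI 1 and BCAS+TBI 2 in set 1 and the other 4 in set 2, so that each set held 1 library of every group. Of the variance between libraries, 40.3% lay on the first principal component, which separated the sets, and 877 of 5309 tested genes (16.5%) differed between them in edgeR at an adjusted p under 0.05. Depth set was therefore a term of the model. No barcode sequence among these nuclei occurred in more than 1 library.

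The astrocyte label held for most of the nuclei and not for all of them. Slc1a3, the glutamate transporter GLAST, had 2246 to 2759 CPM (UMIs per 1000000 UMIs of the same nuclei) across the 8 libraries. Gja1 (connexin 43) had 699 to 1266 CPM, Aqp4 621 to 1082, Fgfr3 213 to 351, Gldc 174 to 276 and Slc7a10 131 to 320. Among astrocyte genes that the rule did not use, Slc1a2 was detected in 90.1% of nuclei, Glul (glutamine synthetase) in 48.5% and the proteoglycan gene Gpc5 in 79.8%. At the edge of the rule, 108 nuclei had exactly 3 UMIs of the astrocyte genes and 103 otherwise qualifying ones had 2. At the neuron limit, 88 nuclei had exactly 2 UMIs and 28 otherwise qualifying ones had 3. Of the nuclei set aside for Slc6a11 or Agt, 610 had a single UMI of the pair, so the boundary between both sets runs through nuclei that differ by 1 molecule.

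The regional part of the label was only partly borne out. Irx2, a patterning gene of the diencephalon and midbrain, was found in 0 of 916 nuclei, which limits the share with a UMI to 0.328% (3 counts, counting error only) and says nothing of expression at this depth, against 27 of 1755 in the Slc6a11 or Agt positive set. Irx5 was found in 3 nuclei against 41. The glycine transporter gene Slc6a9 was detected in 4.91% against 14.6%, Itih3 in 16.4% against 37.8% and Sparc in 11.4% against 28.1%. After each nucleus was thinned to 500 UMIs, the same 3 genes stood at 1.64% against 4.90%, 4.69% against 14.3% and 4.59% against 9.80%. Tcf7l2, a gene known from the thalamus, was not missing and was detected in 43.8% of the kept nuclei against 54.8%, and in 13.2% against 18.2% after thinning. The telencephalic genes Lhx2 and Emx2 differed less, with Lhx2 detected in 10.4% against 9.29% and Emx2 in 6.88% against 5.64%. Because Slc6a11 and Agt divided the sets and vary together with such genes, these shares describe the sets and were not tested.

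Clustering of the 916 nuclei, with each depth set centred on its own mean, gave 6 clusters. Cluster 1 (255 nuclei) led with Luzp2, Gabbr2, Gria2 and the glutamate receptor gene Grm3. Cluster 2 (200 nuclei) led with Thbs4, Igfbp5, Cst3, Clu and C4b. Cluster 3 (188 nuclei) had higher Slc1a2, Mfge8 and Gpc5. Cluster 4 (118 nuclei) had Myoc, Gfap, Aqp4 and Slc38a1 among its leading genes, which include known markers of white matter and pial astrocytes, and it held 45.7% of all Gfap UMIs. In their summed counts, clusters 5 and 6 go against the label. Cluster 5 (84 nuclei) led with Hba-a1, Enpp2, Ttr and Lrriq1, which are haemoglobin, choroid plexus and ciliated cell genes, and its choroid plexus markers summed to 3277 CPM against 90.7 CPM in the other nuclei. Cluster 6 (71 nuclei) led with Ptgds, Adam12, Slc6a20a and Bmp6, genes of meningeal fibroblasts and arachnoid cells, and its fibroblast markers summed to 4029 CPM against 95.3 CPM. The 6 astrocyte genes of the rule were present in clusters 5 and 6 at 2735 and 2659 CPM, below the 5044 to 6191 CPM of clusters 1 to 4. Only 30 of the 84 nuclei of cluster 5, and 52 of the 71 of cluster 6, held at least 3 UMIs over at least 2 markers of another cell type. The sums of cluster 5 rest in part on few nuclei. In all, 6 nuclei held 90.3% of the UMIs of Htr2c, a choroid plexus marker, and 1 nucleus of cluster 5 held 637 of all 787 Hba-a1 UMIs.

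**Figure D1:**
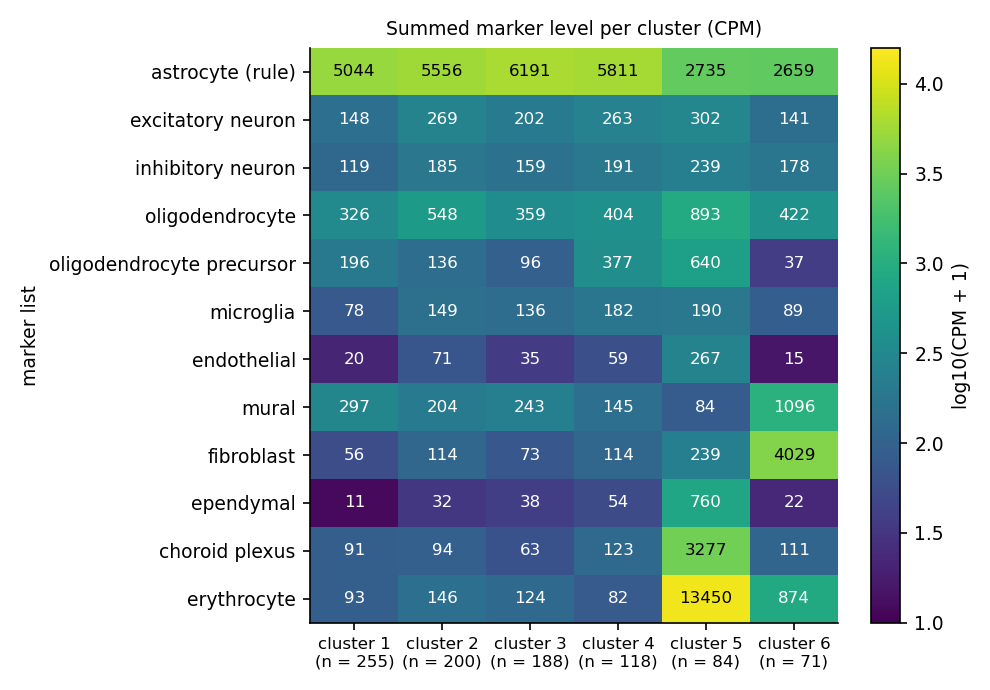
Summed level of 12 marker lists (rows, CPM, numbers printed) in the 6 clusters of the kept nuclei (columns), with colour on a log10(CPM + 1) scale. Astrocyte genes of the rule reach 5044 to 6191 CPM in clusters 1 to 4, choroid plexus and erythrocyte markers stand out in cluster 5, and fibroblast and mural markers stand out in cluster 6. Of the erythrocyte markers, 1 nucleus of cluster 5 holds 637 of all 787 Hba-a1 UMIs and 1041 of all 1179 Hbb-bs UMIs.

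Counted nucleus by nucleus, 154 of the 916 held at least 3 UMIs over at least 2 markers of another cell type. They included 52 with fibroblast markers, 47 with oligodendrocyte markers, 27 mural, 17 oligodendrocyte precursor and 16 ependymal, and 7 with choroid plexus markers. Their number was 20 of 160 kept nuclei in TBI 1, 20 of 76 in TBI 2, 18 of 125 in BCAS+TBI 1 and 17 of 112 in BCAS+TBI 2. Without TBI surgery it was 14 of 111 in control 1, 24 of 108 in control 2, 17 of 115 in BCAS 1 and 24 of 109 in BCAS 2. Relative to the kept nuclei they were most frequent in TBI 2 and least frequent in TBI 1. Cluster 6 had 9, 12, 10 and 8 nuclei in the libraries with TBI surgery (TBI 1, TBI 2, BCAS+TBI 1 and BCAS+TBI 2) and 7, 11, 6 and 8 in control 1, control 2, BCAS 1 and BCAS 2. Relative to the kept nuclei, cluster 6 too was largest in TBI 2. The gene tests below were also run without these 154 nuclei, and again without nuclei that held erythrocyte markers, settings added after the data were seen. The shares were recomputed without the 154 nuclei alone.

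The share of nuclei that met the rule did not separate the surgeries. It was 1.94% and 1.82% in the control libraries, 2.09% and 1.59% in BCAS, 2.98% and 0.998% in TBI, and 2.08% and 2.04% in BCAS+TBI. Both the highest and the lowest of the 8 shares were TBI libraries, from different depth sets, and their 95% Wilson intervals (counting error only) did not overlap. With TBI surgery the mean share was 2.02% ± 0.81 (SD, n = 4) and without it 1.86% ± 0.21, a difference of 0.162 percentage points (exact two-sided permutation p = 0.686, smallest possible p 0.0286). Within depth set 1 the difference was 0.495 points and within set 2 it was -0.170 points. For BCAS surgery the difference was 0.0164 points (exact two-sided permutation p = 1, and both p-values were 1 after adjustment over the 2 surgeries). A share of barcodes cannot tell a change in astrocytes from a change in the other nuclei captured with them.

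**Figure D2:**
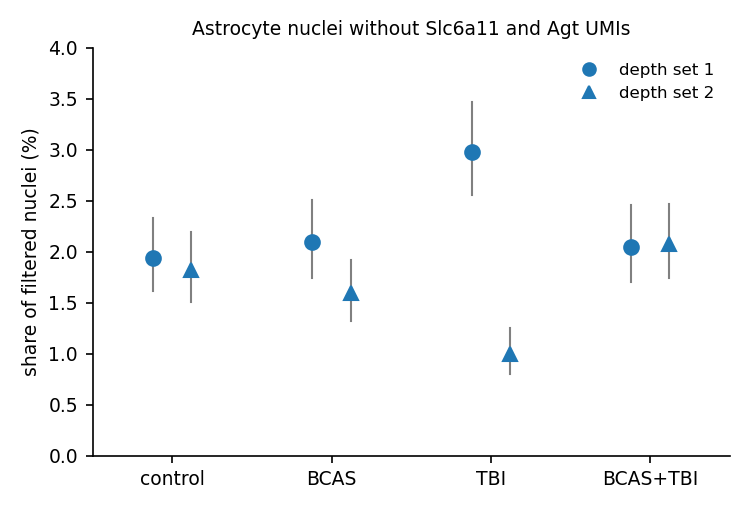
Share of filtered nuclei kept by the rule in each library (%, points, with 95% Wilson intervals as lines), by group, with circles for depth set 1 and triangles for set 2. The TBI libraries hold both the highest (2.98%) and the lowest (0.998%) share.

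The effect of TBI surgery on gene expression was estimated from all 8 libraries as the average over mice with and without BCAS, and Gfap was its clearest astrocyte gene. Gfap encodes the intermediate filament of reactive astrocytes and lies at chr11:102887336-102900912 on the minus strand (GRCm38, GENCODE M21). It stood at 271 and 171 CPM in the control libraries, 195 and 215 in BCAS, 731 and 333 in TBI, and 301 and 426 in BCAS+TBI. All 4 libraries with TBI surgery were above all 4 without, at 448 ± 196 CPM against 213 ± 42.6 CPM (SD, n = 4 each). The log2 change was 1.03 (SE 0.18, edgeR adjusted p = 0.000925). Within depth set 1 the libraries with TBI surgery had 2.48 times the level of those without, and within set 2 they had 1.64 times. In the simplest test, the exact two-sided permutation of the 8 CPM values, p was 0.0286, the smallest that this design allows. Arms that do not overlap fix this value, so it adds nothing to the separation given above. Such a separation, with all 4 libraries with TBI surgery above the 4 without, was seen for 44 of 5309 tested genes (0.829%).

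The Gfap counts were uneven between nuclei and libraries. A Gfap UMI was present in 252 of the 916 nuclei. Nuclei with 5 or more Gfap UMIs numbered 2, 0, 0 and 1 in control 1, control 2, BCAS 1 and BCAS 2, and 14, 1, 3 and 4 in TBI 1, TBI 2, BCAS+TBI 1 and BCAS+TBI 2. After every nucleus was thinned to 500 UMIs, the share with a Gfap UMI was 17.5% and 17.1% in TBI 1 and TBI 2, 9.60% and 10.7% in BCAS+TBI 1 and 2, and 8.33% to 11.7% in the 4 libraries without TBI surgery. Both BCAS+TBI libraries thus lay within the range of the libraries without TBI surgery, and the arm means were 13.7% and 10.4% (exact permutation p = 0.257). With the nucleus highest in Gfap left out of each library, the means were 385 ± 192 and 191 ± 34.8 CPM (SD, n = 4), and the exact permutation p was 0.0571. BCAS+TBI 1, where that nucleus held 16 of 72 Gfap UMIs, then stood at 234.5 CPM, below control 1 at 238 CPM. Barcodes that held neuron genes had 1.30 to 10.5 CPM of Gfap, with the 2 highest values in TBI 1 and BCAS+TBI 2. Without the 154 nuclei with markers of other types the log2 change was 0.94 (edgeR adjusted p = 0.0451), and with nuclei holding erythrocyte markers also left out it was 0.94 with an adjusted p of 0.142 in edgeR. DESeq2 gave an adjusted p of 0.269. Without the depth set term the unadjusted edgeR p was 0.00366 and the adjusted p was 0.9999. The edgeR adjusted p was also 0.9999 with the replicate number as a block in place of the depth set. In nuclei with no neuron UMIs the log2 change was 0.86 and the edgeR adjusted p 0.876. With 1 library left out, Gfap passed in 4 of 8 fits, and its edgeR adjusted p was 0.148 without control 1, 0.0817 without control 2, 0.164 without BCAS 1 and 0.0612 without BCAS+TBI 2, at log2 changes of 0.78 to 1.04.

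Gfap was not particular to the nuclei without Slc6a11 and Agt. In the Slc6a11 or Agt positive astrocytes it stood at 123 and 126 CPM in control, 228 and 90.9 in BCAS, 525 and 183 in TBI, and 190 and 295 in BCAS+TBI. Their means were 298 ± 160 CPM with TBI surgery and 142 ± 59.5 without (SD, n = 4), and BCAS 1 lay above TBI 2 and BCAS+TBI 1 (exact permutation p = 0.0857). The log2 ratio of Gfap between both sets of astrocytes averaged 0.63 with TBI surgery and 0.65 without, a difference of -0.015 (exact permutation p = 0.971). The nuclei without Slc6a11 and Agt had the higher level in 7 of 8 libraries, all but BCAS 1.

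**Figure D3:**
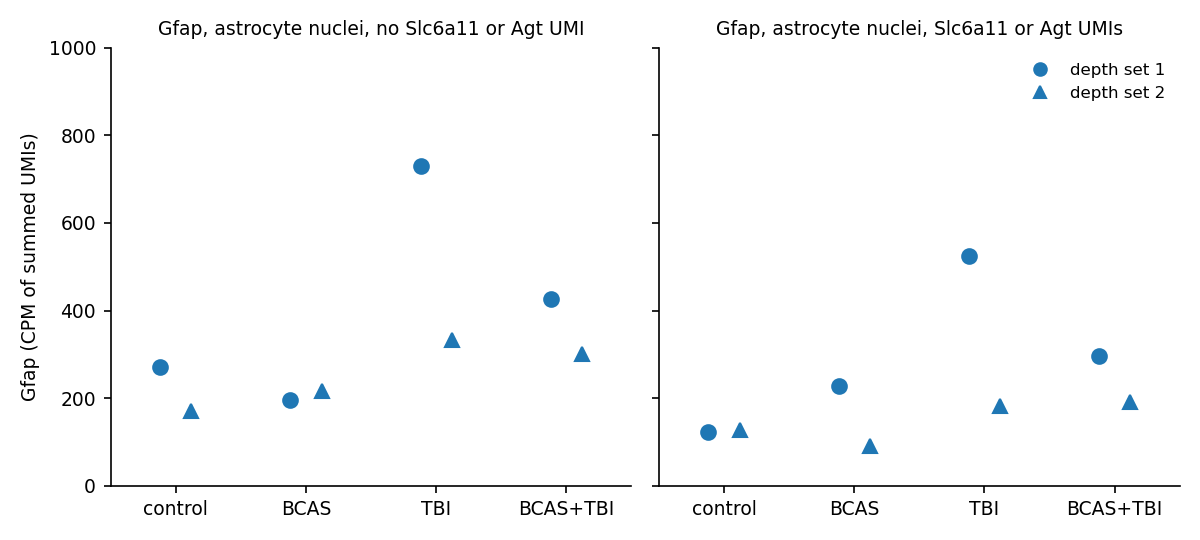
Gfap level (CPM of summed UMIs) in each library, by group, for the kept nuclei (left) and for astrocyte nuclei with Slc6a11 or Agt UMIs (right), with circles for depth set 1 and triangles for set 2. On the left all 4 libraries with TBI surgery lie above the 4 without, and on the right BCAS 1 lies above 2 of the libraries with TBI surgery.

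In all, 9 of 5309 genes tested passed an adjusted p of 0.05 for TBI surgery (0.17%), and all 9 were higher. By the unadjusted p 261 genes were under 0.05. The count was 0 in edgeR without the depth set term (82 at an unadjusted p under 0.05) and 0 in DESeq2 with it (43). It was 0 without control 1, 1 without BCAS+TBI 2, 3 without control 2, 5 without TBI 2 and 15 without TBI 1. For scale, 44 genes had all 4 libraries with TBI surgery above all 4 without (0.829%) and 41 had all of them below (0.772%). In simulated counts of these libraries 63.4% of genes changed 2-fold and 99.5% of genes changed 4-fold were recovered, among changed genes that passed the count filter. The simulation drew sums per library at the fitted spread, without single nuclei that hold most UMIs of a gene. Recovery in the real counts may therefore be lower. Beside Gfap, 7 of the 9 genes are named here, and a clone-named gene is not. Without the 154 nuclei with markers of other types 4 genes passed, among them Gfap, Hba-a1 and Hbb-bs, and with nuclei holding erythrocyte markers also left out none did in edgeR (188 at an unadjusted p under 0.05).

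The haemoglobin genes Hba-a1 and Hbb-bs had the largest changes, with log2 values of 3.30 (SE 0.38) and 3.59 (SE 0.44) and edgeR adjusted p-values of 8.84e-08 and 3.84e-07. Hba-a1 stood at 3696 CPM in BCAS+TBI 2, 266 in TBI 1, 143 in BCAS 1 and 4.19 to 38.7 in the other 5 libraries. A single nucleus of BCAS+TBI 2, in cluster 5, held 637 of all 787 Hba-a1 UMIs and 1041 of all 1179 Hbb-bs UMIs. DESeq2 gave both genes an adjusted p of 0.9999. Without nuclei that held markers of other types or of erythrocytes, Hba-a1 stood at 125 CPM in BCAS+TBI 2 and 58.2 in TBI 1, against 4.91 to 56.3 in the other 6 libraries.

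Slc38a2, an amino acid transporter gene at chr15:96687392-96699730 (GRCm38), had 82.9 and 175 CPM in control, 63.0 and 62.1 in BCAS, 187 and 261 in TBI, and 251 and 179 in BCAS+TBI. The 4 libraries with TBI surgery were all above the 4 without (log2 change 1.30, SE 0.22, edgeR adjusted p = 0.000769). Of its 277 UMIs, 69.0% lay in the fibroblast gene cluster, and without the nuclei with markers of other types the log2 change was 0.93 with an adjusted p of 0.866 in edgeR. Foxp2 (log2 change 1.27) and Slc47a1 (3.08) were placed likewise, with 70.8% and 90.2% of their UMIs in that cluster. The bicarbonate transporter gene Slc4a10 (log2 change 1.12) had 50.5% of its UMIs there and 33.7% in the choroid and ependymal gene cluster. Slc2a13, a myo-inositol transporter gene (log2 change 1.13), had 41.7% in the fibroblast gene cluster. Slc47a1 passed the filter on low counts only through libraries with TBI surgery. Nuclei with markers of other types held 41.5% of the UMIs of Slc38a2, 48.5% of Foxp2, 51.7% of Slc4a10, 44.6% of Slc2a13 and 11.8% of Slc47a1. Without those nuclei none of the first 4 passed in edgeR, and Slc47a1 was too low to be tested. The log2 change of Slc4a10 was then 1.11, near its value with them, that of Foxp2 was 0.93 and that of Slc2a13 0.69. Over all kept nuclei the 6 fibroblast markers, none of them at 0, summed to 241 to 525 CPM in the libraries without TBI surgery and 278.5 to 712 CPM in those with it. The 6 choroid plexus markers summed to 86.0 to 762 and 20.9 to 731 CPM. Their part in these changes was not tested.

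The gene lists were read for TBI surgery by their tested members, beside a median log2 change of 0.0057 over all 5309 genes. Of 18 pan-reactive astrocyte genes 6 were tested, 1 passed (Gfap, 1 of 6), and the median was 0.94. Vim, S100a6 and Cd44 passed the filter on low counts only through libraries with TBI surgery. The filter thus favoured a high median, which cannot serve as evidence of a change in the list. The calcium-binding protein gene S100a6 had a log2 change of 1.56 (SE 0.48, edgeR adjusted p = 0.488). S100a6 stood at 5.53 and 38.9 CPM in control, 11.5 and 16.6 in BCAS, 66.5 and 39.2 in TBI, and 33.5 and 95.2 in BCAS+TBI. The arms overlapped, with BCAS+TBI 1 below control 2. Vim, the second intermediate filament, had a log2 change of 0.98 (SE 0.49) and the hyaluronan receptor gene Cd44 0.91 (SE 0.41), neither past the threshold. With 1 library left out the values ran from 0.93 to 2.77 for S100a6 and from 0.44 to 1.75 for Vim, lowest without control 1 and highest without control 2. Stat3, a transcription factor of the reactive program, had means of 103 ± 34.3 and 100 ± 30.9 CPM with and without TBI surgery (SD, n = 4). The other 12 list members were too low to test. Osmr, the oncostatin M receptor, had 44 UMIs in all, with 25.1 to 41.1 CPM after TBI surgery and 11.5 to 19.4 CPM without it. Lcn2 had 5 UMIs and Serpina3n 46.

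Reactive sets named for neuroinflammation and ischaemia were mostly beneath the depth of these nuclei. Of 13 genes of the A1 set 3 were tested and none passed, and of 11 genes of the A2 set none could be tested. C3, the A1 complement gene, had 22 UMIs over all libraries. None of the 15 immediate early genes was abundant enough to test, and Fos had 11 UMIs.

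Of the 10 white matter or pial astrocyte genes 8 were tested and 1 passed, Gfap, which this list shares with the reactive list. Their median log2 change was 0.38, with 6 of 8 above 0. Vim, also on this list, passed the filter on low counts only through libraries with TBI surgery. Id3, a target of bone morphogenetic protein signalling, had a log2 change of 0.41 (SE 0.20, edgeR adjusted p = 0.978), and 0.0152 without TBI 1. Its relative Id1 had 50.2 to 88.6 CPM with TBI surgery and 16.6 to 49.8 without (log2 change 1.05, SE 0.35, edgeR adjusted p = 0.598), a change that did not pass. Aqp4, which belongs to the list, was also among the genes that chose the nuclei.

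The genes of normal astrocyte function showed no call for TBI surgery. All 25 identity genes outside the rule were tested, none passed, and their median log2 change was -0.045. Slc1a2 averaged 7865 CPM with TBI surgery and 8111 without, and the potassium channel gene Kcnj10 157 ± 27.3 and 159 ± 43.2 CPM (SD, n = 4). Gjb6 (connexin 30) had 190 to 252 CPM with TBI surgery and 140 to 172 without, groups that did not overlap (log2 change 0.39, SE 0.20, edgeR adjusted p = 0.986). None of 11 glutamate and GABA genes passed, at a median of 0.00, with Grm5 at 0.38 (SE 0.19) and Gabbr2 at -0.57 (SE 0.23). None of 15 potassium, pH and water genes passed, at a median of -0.068. Of 16 tested lipid and cholesterol genes none passed and 5 were above 0 (median -0.11). Of 9 tested synapse-acting secreted factors none passed (median -0.11), and Chrdl1, which promotes synapse maturation, had the lowest value at -0.96 (SE 0.39).

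Stress and metabolic lists gave no call either. Of 13 metallothionein and oxidative stress genes 9 were tested, with a median of 0.31. Mt2 had a log2 change of 0.65 (SE 0.20, edgeR adjusted p = 0.488), and the zinc transporter gene Slc39a14 one of 0.84 (SE 0.34). Pfkp, a phosphofructokinase of glycolysis, had 139 to 215 CPM with TBI surgery and 68.8 to 128 without (log2 change 0.74, SE 0.23, edgeR adjusted p = 0.488), and the 12 tested glucose genes had a median of 0.051. Zbtb16, a glucocorticoid-induced gene, had a log2 change of 1.15 (SE 0.34, edgeR adjusted p = 0.403), and 7 tested genes of its list had a median of 0.0034. The 7 tested hypoxia genes had a median of 0.11 and the 11 tested scar matrix genes one of 0.072. All 6 tested imprinted genes had log2 changes below 0 (median -0.36), none past the threshold. Nnat, an imprinted membrane protein gene, had 1028 and 646 CPM in control, 636 and 149 in BCAS, 608 and 209 in TBI, and 234 and 566 in BCAS+TBI. Its log2 change was -0.49 (SE 0.17, edgeR adjusted p = 0.702; -0.76 without control 1 and -0.20 without BCAS 1) for TBI surgery and -0.64 (SE 0.17, edgeR adjusted p = 0.229) for BCAS surgery. The regional gene Emx2 had 41.1 to 78.4 CPM with TBI surgery and 5.53 to 37.3 without (log2 change 0.95, SE 0.42, edgeR adjusted p = 0.909). Emx2 passed the filter on low counts only through libraries with TBI surgery.

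**Figure D4:**
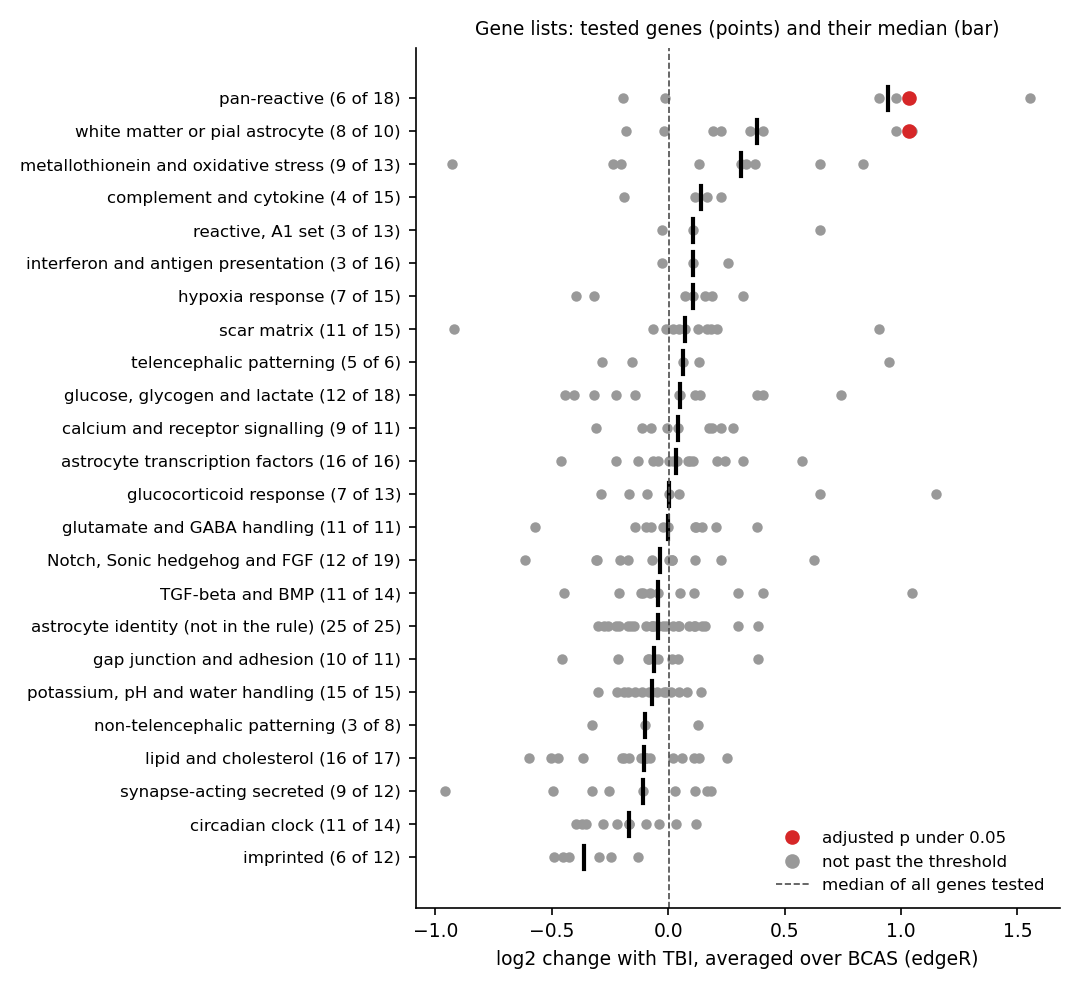
log2 change with TBI surgery, averaged over BCAS (x axis), for the tested genes of each list with at least 3 of them (grey points, red where the edgeR adjusted p was under 0.05), with the list median as a black bar and the median of all genes as a dashed line. Gfap is the only red point, in 2 lists, and of the lists drawn the pan-reactive one has the highest median (0.94). Its members Vim, S100a6 and Cd44 passed the filter on low counts only through libraries with TBI surgery, which favours a high median.

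BCAS surgery, averaged over TBI, changed 6 of 5309 genes (0.113%), 2 higher and 4 lower, with 301 at an unadjusted p under 0.05. The count was 0 without the depth set term (93 unadjusted) and 0 in DESeq2 (34 unadjusted). It was 1 without control 2, 3 without BCAS+TBI 1, 9 without TBI 1, 11 without BCAS 1 and 15 without BCAS 2. In 39 genes all 4 libraries with BCAS surgery lay above the 4 without (0.735%) and in 58 all lay below (1.09%). The higher genes were Hba-a1 (log2 change 2.57) and Hbb-bs (2.31), the genes of which 1 nucleus of BCAS+TBI 2 held most UMIs. Without that library their log2 changes were -0.58 and -0.37. Without nuclei of more than 3 times a library's median UMIs, none of them in BCAS+TBI 2, they were 2.10 and 2.19 and did not pass. Ptgds, prostaglandin D synthase, was lower. It stood at 2068 and 1571 CPM in control, 659 and 729 in BCAS, 1171 and 1162 in TBI, and 352 and 1036 in BCAS+TBI, so that all 4 libraries with BCAS surgery were below the 4 without (log2 change -1.06, SE 0.17, edgeR adjusted p = 0.000241). The fibroblast gene cluster held 81.2% of its 1886 UMIs, and without the nuclei with markers of other types its log2 change was -0.77 (edgeR adjusted p = 0.755).

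Trpm3, a cation channel gene at chr19:22139046-22995410 (GRCm38), had 2300 and 3022 CPM in control, 1857 and 2483 in BCAS, 3003 and 4650 in TBI, and 1403 and 1725 in BCAS+TBI. Its log2 change with BCAS surgery was -0.75 (SE 0.14, edgeR adjusted p = 0.00307), and it was the single member of the 15 potassium, pH and water genes to pass. The fibroblast gene cluster held 48.9% of its UMIs and the choroid and ependymal gene cluster 15.7%. Without the nuclei with markers of other types its log2 change was -0.43 (edgeR adjusted p = 0.998). Htr2c, a serotonin receptor gene abundant in choroid plexus, had a log2 change of -2.23 (SE 0.38, edgeR adjusted p = 0.000808), and 6 nuclei held 90.3% of its 319 UMIs.

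Fggy, which encodes a carbohydrate kinase, was spread over 113 nuclei with at most 3 UMIs in any of them. It had 88.5 and 89.5 CPM in control, 86.0 and 12.4 in BCAS, 139 and 150 in TBI, and 8.37 and 56 in BCAS+TBI (log2 change with BCAS surgery -1.61, SE 0.34, edgeR adjusted p = 0.0268). All 4 libraries with BCAS surgery were below the 4 without, but BCAS 2 and BCAS+TBI 1 alone were low. The same 2 libraries were low across all filtered barcodes, at 10.6 and 6.97 CPM of Fggy against 51.0 to 72.7 in the other 6, and across barcodes with neuron genes, at 10.5 and 6.55 CPM against 47.8 to 70.7. Within depth set 1 the ratio of libraries with BCAS surgery to those without was 0.624 in these astrocytes, and within set 2 it was 0.0867. The other 26 of the 27 gene lists had no call for BCAS surgery. Without the nuclei with markers of other types Hba-a1 alone passed, and without those holding erythrocyte markers as well none did in edgeR (183 at an unadjusted p under 0.05).

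BCAS+TBI against TBI alone is the comparison that the title of the series names. It gave 12 of 5309 genes past the threshold (0.226%), 2 higher and 10 lower, with 325 at an unadjusted p under 0.05. It gave 0 without the depth set term (89 unadjusted) and 1 in DESeq2, and between 6 (without BCAS+TBI 1) and 23 (without TBI 1) when 1 library was left out, with 22 without BCAS 1 and 21 without BCAS 2. Gfap had 301 and 426 CPM with both surgeries and 731 and 333 with TBI alone, and the groups overlapped. Both higher genes were the haemoglobins, at log2 changes of 3.57 for Hba-a1 and 4.18 for Hbb-bs. Among the lower genes, Htr2c (-5.26), Enpp2 (-1.76), Otx2os1 (-4.70), Etl4 (-2.55) and Zfp385b (-2.48) had 50.6% to 90.9% of their UMIs in the choroid and ependymal gene cluster. Cemip (-3.53) and Pbx3 (-1.77) had 95.7% and 70.3% in the fibroblast gene cluster, and Trpm3 (-1.20) and Frmpd4 (-1.24) lay in both. The tenth was Fggy (-2.17). Without BCAS+TBI 1 the log2 changes were -0.51 for Enpp2, -1.52 for Otx2os1 and -1.40 for Fggy. Without the nuclei with markers of other types only Hba-a1 and Hbb-bs passed in edgeR, and with nuclei holding erythrocyte markers also left out none did, with 216 genes at an unadjusted p under 0.05.

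The interaction asks whether the TBI change differed between mice with and without BCAS. It gave 14 of 5309 genes (0.264%), all lower, with 314 at an unadjusted p under 0.05. It gave 0 without the depth set term (93 unadjusted) and 1 in DESeq2, 4 without control 2, 6 without TBI 2 and 28 without TBI 1. Htr2c, with the lowest p, stood at 11.1 and 241 CPM in control, 0 and 459 in BCAS, 168 and 562 in TBI, and 16.8 and 5.60 in BCAS+TBI. The neuronal adhesion gene Nrxn3 had 254 and 280 CPM in control, 585 and 840 in BCAS, 421 and 522 in TBI, and 385 and 112 in BCAS+TBI. In both depth sets Nrxn3 stood higher in the BCAS library than in its control, and the BCAS+TBI library stood below the TBI one. The share of Nrxn3 UMIs in nuclei with markers of other types was 36.1%, and without those nuclei no gene passed for the interaction in edgeR, with 215 at an unadjusted p under 0.05. The 3 neuron genes that the rule limits summed to 134 to 418 CPM per library, lowest in BCAS+TBI 2 and highest in TBI 2. None of the 27 gene lists had a member past the threshold. In simulated counts 4.86% of 2-fold and 47.4% of 4-fold interactions were recovered, so interactions of these sizes could be missed.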

How the data were processed

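Nuclei from frozen tissue were sequenced with the 10x Genomics 3' kit, per the labels' protocols. The deposited files hold UMI counts per gene and barcode. Per the file headers, Cell Ranger 7.0.0 wrote them. The submitters' processing notes name Seurat, with no version, and the build GRCm38 (mm10). How barcodes were called is not given in the sources used here. The members and lists were chosen with earlier results of these data known.

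UMI counts of the kept nuclei were summed per library and tested with edgeR 4.0.16 in R 4.3.3 (quasi-likelihood test, two-sided, TMM scaling, filterByExpr with a minimum count of 10). The model held the 4 groups and a depth set term, which left 3 residual degrees of freedom, and p-values were adjusted over 5309 genes by the Benjamini-Hochberg method. The threshold was an adjusted p of 0.05. DESeq2 1.42.0 was an alternative. Shares of nuclei were compared by exact permutation over the 8 libraries. CPM values are plain, over all UMIs of the same nuclei. Total counts per library were 28118725 to 56135192 UMIs..

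Genes were named by rule: per comparison up to 15 past the threshold in order of p, without predicted, clone-named, mitochondrial and ribosomal genes. Per list, members past the threshold, Gfap and those with the extreme changes or highest levels were named. Other genes named were added for description after their values were seen. The script was tested on simulated data with known changes. Alternatives covered the filters on nuclei and genes, scaling, the depth set, thinning, a replicate block and leaving out each library.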

Additional observations from a re-analysis of the deposited data

Results flagged for a closer look

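Single libraries stood far from the others of their arm in 12 measures. The measure was the gap of the most distant of 4 libraries to its neighbour as a share of the arm's range, with 0.829 as the 95% limit, which chance exceeds in about 1 group of 20. How many measures were screened is not stated here, so the 12 cannot be set against that rate. With TBI surgery the ratio was 0.929 for Hba-a1 and 0.966 for Hbb-bs (BCAS+TBI 2 highest), 0.889 for Gjb6, 0.835 for Ptgds, 0.943 for Cemip, 0.891 for Frmpd4, 0.918 for Galnt13 and 0.952 for Col25a1. The median UMIs per nucleus gave 0.882 in the same arm, where BCAS+TBI 2 was lowest. Without TBI surgery the ratio was 0.910 for Emx2 (control 1 lowest), 0.955 for Fggy (BCAS 2 lowest) and 0.898 for Lrriq1.

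By the interaction in edgeR, 14 of 5309 genes (0.264%) passed for a TBI change that differed between libraries with and without BCAS surgery. The count was 0 without the depth set term, 1 in DESeq2 and 0 without nuclei with markers of other types. The difference in log2 change was -6.06 for Htr2c, -6.31 for Otx2os1, -4.76 for Lrriq1, -4.75 for Zfp385b, -3.56 for Etl4 and -2.08 for Enpp2, whose UMIs lay mostly in the choroid and ependymal gene cluster. It was -3.29 for Col25a1, -3.08 for Galnt13 and -2.002 for Slc4a10, shared between that cluster and the fibroblast gene cluster. It was -2.92 for Car10, -2.49 for Efna5, -2.35 for Nrxn3, -2.25 for Lingo2 and -1.96 for Snhg11, which were spread over more clusters. With 1 library left out in turn, Otx2os1 ranged from -9.46 to -0.024 (nearest 0 without BCAS 2), Col25a1 from -5.82 to -0.56 (without TBI 2), Car10 from -9.03 to -1.65 (without TBI 1), Enpp2 from -3.06 to -0.84 (without BCAS+TBI 1) and Htr2c from -9.04 to 1.22 (without BCAS 2). Of the 8 such fits, Etl4 passed in 8, Htr2c, Nrxn3 and Zfp385b in 7, Otx2os1 and Snhg11 in 4, and the other 8 genes in 2 or 3.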

How the results depend on the processing

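Numbers of genes called are given in the order TBI surgery (9 as reported), BCAS surgery (6), interaction (14) and BCAS+TBI against TBI (12). They were 0, 0, 0 and 0 without the depth set term, 0, 0, 1 and 1 with DESeq2, 11, 9, 21 and 20 with no filter on low counts, and 6, 4, 6 and 8 with a minimum count of 30. They were 10, 9, 26 and 19 for nuclei with at least 1000 UMIs, 2, 5, 3 and 3 with at least 5 marker UMIs, 1, 0, 0 and 0 with no neuron UMIs, and 5, 1, 7 and 5 with Slc6a11 and Agt positive nuclei kept. Sums thinned to the same total gave 6, 3, 7 and 8. Settings chosen after seeing the data gave 4, 1, 0 and 2 without nuclei with markers of other types, 0, 0, 0 and 0 without erythrocyte markers as well, and 9, 4, 11 and 12 without nuclei whose UMIs exceeded 3 times the library's median. Leaving out 1 library gave 0 to 15, 1 to 15, 4 to 28 and 6 to 23. Where a cell of the design then held 1 library, it was assumed to vary like the others. The cause of these shifts was not tested.

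With the replicate number as a replicate block in place of the depth set, the paired fit called 0, 0, 0 and 0 genes (70, 72, 77 and 72 at an unadjusted p under 0.05). Same-numbered deviations correlated at 0.390 to 0.412 among control, BCAS and TBI and at -0.424 to -0.455 with BCAS+TBI. Replicate 1 was in depth set 1 for control, BCAS and TBI and in set 2 for BCAS+TBI. These correlations therefore cannot tell a pairing by number from the depth sets.

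The difference in share of nuclei for TBI surgery was -0.238 percentage points with Slc6a11 and Agt positive nuclei kept and -0.156 to 0.505 with 1 library left out. For BCAS surgery it was -0.116 with at least 1000 UMIs, -0.240 with barcodes thinned to 500 UMIs, -0.0522 with at least 5 marker UMIs, -0.0698 with no neuron UMIs, -0.0324 with Slc6a11 and Agt positive nuclei kept, and -0.296 to 0.364 with 1 library left out.

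The direction of Gfap held in 22 of 22 alternatives (log2 change 0.78 to 1.28), with 13 past the threshold. Some log2 changes turned. With at least 5 marker UMIs, Slc4a10 had -1.07 for TBI surgery and 1.27 for the interaction, Hbb-bs -0.36 for BCAS surgery, and BCAS+TBI against TBI gave -1.30 for Hba-a1 and -0.80 for Hbb-bs. With no neuron UMIs, Hba-a1 and Hbb-bs had -0.18 and -0.57 for BCAS surgery and -1.19 and -1.16 for BCAS+TBI against TBI. With 1 library left out in turn, Hba-a1 ranged from -0.58 to 4.33 and Hbb-bs from -0.37 to 3.99 for BCAS surgery, and from -2.70 to 3.94 and -1.21 to 4.87 for BCAS+TBI against TBI, lowest without BCAS+TBI 2. Cemip ranged from -6.48 to 0.0547 for BCAS+TBI against TBI (highest without TBI 1) and Htr2c from -9.04 to 1.22 for the interaction (highest without BCAS 2). For the interaction Slc4a10 had 0.43 without nuclei with markers of other types and 0.41 without erythrocyte markers as well.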
